A study of Mus musculus with 44 samples.

Results

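The 52 genes described here encode enzymes that write, erase or move chromatin, along with subunits of their complexes. They were chosen by name from the 8203 gene rows of a TRAP-seq study of Crh neurons in the mouse central amygdala (CeA). They are the rows whose symbol begins with Kdm, Kmt, Hdac, Setd or Smarc, or is Chd or Kat followed by a digit, together with Wdr82. They fall into 9 lysine demethylases (Kdm), 10 lysine methyltransferases (Kmt, Setd and the methyltransferase subunit Wdr82), 8 histone deacetylases (Hdac), 6 lysine acetyltransferases (Kat), 13 SWI/SNF-related genes (Smarc) and 6 CHD remodellers. These family names follow the symbols, and not every member is an enzyme that acts on histones. Wdr82 was added by name, and the study lists it among its top genes between extinction and tone-alone mice. The antisense transcript Chd3os was left out because its symbol goes on after the digit.

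Chromatin regulation works through opposed enzyme pairs. Acetyltransferases loosen histone tails from DNA and deacetylases reverse this, methyltransferases and demethylases set marks that are read as active or silent according to the lysine, and the SWI/SNF, ISWI and CHD ATPases slide or evict whole nucleosomes. In neurons these enzymes are known for setting how readily genes respond to activity, and deacetylase inhibitors and loss of Hdac2 are known to strengthen some forms of memory in rodents, fear extinction among them.

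Ribosome-associated RNA was sequenced from 44 individual Crh-TRAP mice of 10 to 16 weeks, all of which carried a Crh-Cre transgene and a Cre-dependent eGFP-L10a allele, so that ribosomes of cells with Crh promoter activity could be pulled down with an antibody against GFP. Tone-alone mice (TA, 10 males and 6 females) heard 5 tones with no shock, fear-conditioned mice (FC, 6 males and 6 females) heard 5 tones each paired with a 0.65 mA foot shock, and extinction mice (EXT, 10 males and 6 females) were conditioned in the same way and then heard 30 tones without shock on the next day. RNA was taken 2 h after the last session from 1 mm punches over the amygdala. EXT mice differ from TA mice by conditioning, extinction, a day and the context of the last session. From FC mice they differ by all of these except conditioning, so no comparison isolates extinction.

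The values were log2 cpm, the reads of a gene scaled to a common library size. Whole reads, to within 0.05 of a read, were solved back for all 360932 values, from effective library sizes of 12802113 to 20440351 reads, and the 52 genes had a median of 617.5 reads in their median mouse, against 886 for all genes. The lowest count of any of them in any mouse was 77, and the errors given here are between mice and include counting error. EXT libraries were smaller (median 15412341) than TA libraries (18015590), and this held inside each batch with both groups. The 5 batches given in the labels were not balanced. Batch 1 held 4 TA, 5 FC and 2 EXT mice, batch 2 held 5, 2 and 3, and batch 5 held 7, 5 and 5, whereas the 5 mice of batch 3 and the 1 mouse of batch 4 were all EXT, so that there batch and extinction cannot be told apart. Batch accounted for a median of 38.8% of the variance of the 52 genes, group for 7.69% and sex for 4.22%, against 41.5%, 7.93% and 3.86% for all genes. Each share was computed on its own, so those of batch and group overlap.

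Crh and transcripts of GABAergic neurons were present in the pull-down, which was not pure. No input or unbound RNA was among the samples, so enrichment of the tagged cells could not be judged from these levels. Gad1 and Gad2, which make GABA, had median log2 cpm of 9.38 and 9.11 in TA mice, and Crh itself had 5.72. Transcripts of other cells were present in every group: the summed level of the 4 choroid plexus markers ranged from 187 to 27500 cpm in TA mice and from 186 to 51000 cpm in EXT mice, and that of the 7 oligodendrocyte markers from 1420 to 6380 cpm and from 1850 to 13400 cpm. In a pull-down, fewer tagged cells and less RNA per cell cannot be told apart.

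Levels were compared between genes per kilobase of the longest annotated transcript, which makes them approximate. On this scale the 52 genes spanned from 0.22 to 6.38 log2 cpm per kilobase in TA mice, with a median of 3.31. Setd3, which methylates actin, was the highest at 6.38 ± 0.21 (SD, n = 16), followed by Hdac2 at 5.99 ± 0.25. Smarcd3, a SWI/SNF subunit, was the highest of its family at 5.52 ± 0.18, and Kat7 led the acetyltransferases at 5.19 ± 0.24.

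**Figure D1:**
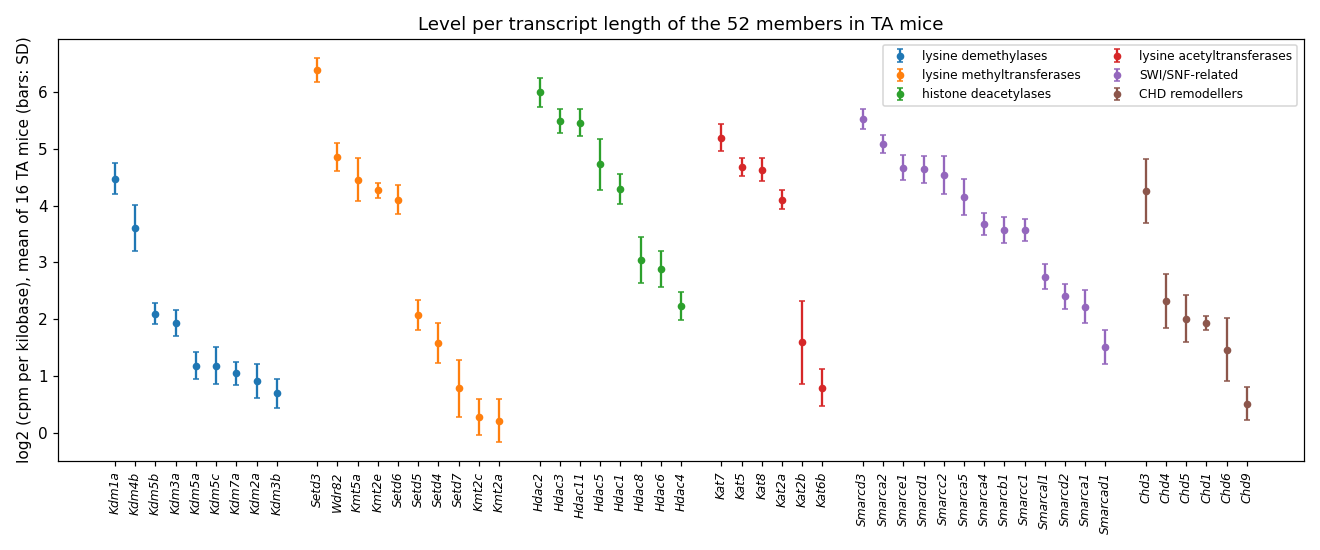
Mean level of each of the 52 genes in the 16 TA mice, in log2 cpm per kilobase of transcript, with bars for the SD between mice and families in colour. Setd3 (6.38) and Hdac2 (5.99) lie at the top, and Kmt2a (0.22) and Kmt2c (0.28) at the bottom.

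The lowest levels per length belonged to Kmt2a and Kmt2c, methyltransferases that mark promoters and enhancers on histone H3, with 0.22 ± 0.37 and 0.28 ± 0.32. Chd9 (0.52), Kdm3b (0.70) and Kat6b (0.80) were the lowest of their families, while Smarcad1 (1.51) and Hdac4 (2.23) were the lowest of theirs. Kdm1a, the demethylase of the CoREST repressor complex, stood at the head of the demethylases with 4.47 ± 0.27, and Chd3, a remodeller of the NuRD complex, at the head of the CHD genes with 4.25 ± 0.56. Neighbours in this order were mostly not separable: in 44 of 51 neighbouring pairs the gap was no more than the mean SD of the pair.

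After extinction, 6 of the 52 genes were lower and 2 were higher than in TA mice at a false discovery rate (FDR) under 0.05, when batch was entered as a number. The lower genes were Wdr82, Kat7, Hdac2, Smarcb1, Smarca5 and Smarca4, and the higher ones Kmt5a and Smarcd3. These 8 are 15.4% of the 52 genes, against 21.4% of all genes tested, of which 11% were lower and 10.4% higher. The chromatin genes were thus called no more often than the table as a whole.

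These calls depend on how batch is treated. The study states control for batch and sex but not the coding of batch, and batch numbers have no natural order. With batches as categories, none of the 52 genes passed FDR 0.05 in limma (2 of all 8203 genes did), 10 had an unadjusted p under 0.05 where 21.1% of all genes did, and all 8 genes kept their direction, 4 of them at an unadjusted p under 0.05. Leaving out batches 3 and 4 gave 0 FDR-significant genes (3 of all genes) and 11 at an unadjusted p under 0.05, where 18.8% of all genes were. Adding library size as a covariate gave 0 (0 of all genes in limma) and 4, where 5.47% of all genes were.

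With batch as a number, 21 of the 52 chromatin genes had an unadjusted p under 0.05 between EXT and TA (40.4%, against 37.8% of all genes). Of these, 13 were lower, where 18.7% of all genes were, and 8 were higher, where 19.1% were. The median log2 fold change of the 52 genes was 0.028, and that of all genes was 0.00505. With batches as categories, 8 were lower and 2 higher, against 11% and 10.2% of all genes, and the median was -0.068.

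The gene with the smallest p among the 52 was Wdr82, the subunit that brings the Set1 methyltransferases to RNA polymerase at active promoters. Because the study had already listed it from these same mice, its rank and its place among the lower genes are not independent results. Its log2 cpm was 6.38 at the lowest, 6.82 at the median and 7.12 at the highest in TA mice, 5.996, 6.54 and 7.14 in FC mice, and 5.92, 6.34 and 6.92 in EXT mice. In 15 of 16 EXT mice the level was under the TA median, and in 11 it was under the lowest TA mouse, 5 of these in batches 3 and 4, though the groups overlapped at the top. The log2 fold change was -0.43 ± 0.088 (SE), a fold of 0.740 (limma, adjusted p = 0.013). It was -0.37, -0.45 and -0.20 inside batches 1, 2 and 5, and with batches as categories it was -0.32 (unadjusted p = 0.0013, limma). The paper lists a smaller fall of Wdr82 than the -0.43 found here, at a similar adjusted p. Why the sizes differ was not tested.

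**Figure D2:**
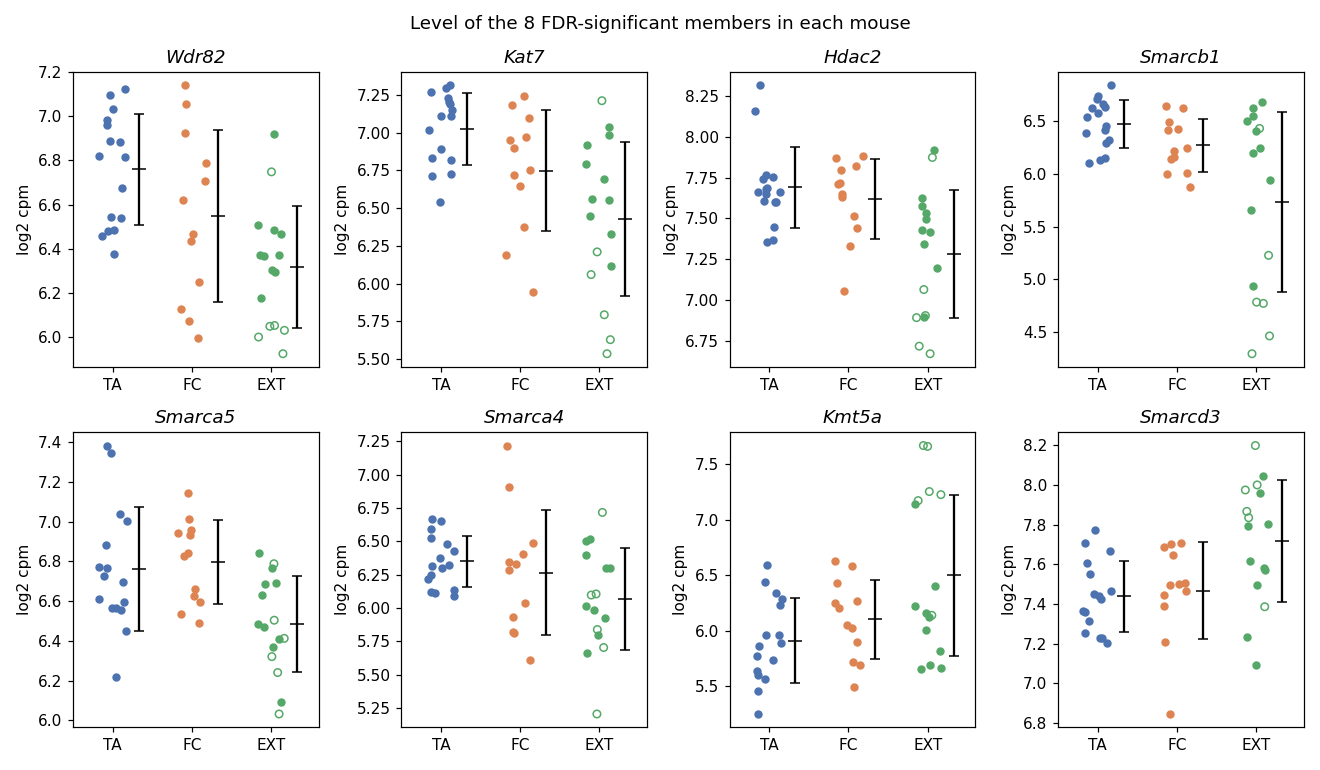
Log2 cpm of the 8 FDR-significant genes in each mouse of the TA, FC and EXT groups, with open circles for the EXT mice of batches 3 and 4 and bars for the mean ± SD. Of the 16 EXT mice, 11 lie below all TA mice for Wdr82 and 8 for Kat7, Hdac2 and Smarcb1, and 5 of the open circles are among these in each gene.

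Wdr82 was also the only gene, of the 42 with a promoter window in the RefSeq table whose window held the full cyclic AMP response element, which the transcription factor CREB recognizes. The element, TGACGTCA, was found in 2.38% of these genes, 4.07% of all tested genes with a window and 1.79% of all 32851 windows, so its share here was not high. The sequences shown are the 250 bases before the RefSeq gene start (build GRCm38.p6) of the genes that were lower at an unadjusted p under 0.05 under both codings of batch and had a motif match other than the GGGCGG box in those bases. Capitals mark the match. In Wdr82 (chr9:106170679-106170928, plus strand) it is the full element, which begins 98 bases upstream. In Kat7 (chr11:95310247-95310496, minus strand) it is the short form of the element, TGACG, 15 bases upstream. In Smarca4 (chr9:21615919-21616168, plus strand) they are matches to the NRF1 core GCATGCGC, 66 bases and, on the other strand, 243 bases upstream.
Wdr82: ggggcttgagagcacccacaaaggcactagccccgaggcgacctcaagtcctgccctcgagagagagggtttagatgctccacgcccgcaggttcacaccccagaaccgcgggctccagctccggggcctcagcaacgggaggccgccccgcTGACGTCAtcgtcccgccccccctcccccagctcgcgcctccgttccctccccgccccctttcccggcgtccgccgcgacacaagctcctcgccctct
Kat7: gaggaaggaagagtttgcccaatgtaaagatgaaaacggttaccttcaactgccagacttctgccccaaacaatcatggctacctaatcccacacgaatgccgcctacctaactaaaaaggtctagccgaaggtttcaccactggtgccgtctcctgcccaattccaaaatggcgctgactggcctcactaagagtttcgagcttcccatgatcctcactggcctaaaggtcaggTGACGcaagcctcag
Smarca4: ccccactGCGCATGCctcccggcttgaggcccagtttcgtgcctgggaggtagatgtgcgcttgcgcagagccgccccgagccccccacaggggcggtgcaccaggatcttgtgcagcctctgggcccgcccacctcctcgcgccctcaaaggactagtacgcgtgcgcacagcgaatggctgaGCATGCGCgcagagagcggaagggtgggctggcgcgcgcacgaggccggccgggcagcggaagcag

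Both strands of each whole 300-base window were searched for 7 motifs, and a match of letters is not a binding site. The short form TGACG, which the full element contains, occurred in 17 of the 42 genes (40.5%, against 39.3% of tested genes and 20.8% of all windows). The NRF1 core GCATGCGC occurred in 4, namely Smarca4, Smarca5, Smarcb1 and Smarcc1 (9.52%, 6.93% and 2.71%), and the ETS site CCGGAAGT in 4, namely Kat5, Kat7, Kat8 and Setd4 (9.52%, 10.1% and 3.89%). The Sp1 box GGGCGG was in 76.2% of the 42 genes, the E-box CACGTG in 4.76% and the TATA box TATAAA in 4.76%, against 72.3%, 12.5% and 7.87% of tested genes and 35.7%, 7.15% and 13.6% of all windows. The 55 windows of these 42 genes were rich in CG like those of expressed genes in general, with a median GC content of 62.7% and 25 CpG pairs, against 61.7% and 22.

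Kat7, an acetyltransferase of histones H3 and H4 also called HBO1, gave the second smallest p. Its log2 cpm was 6.54, 7.11 and 7.31 (lowest, median and highest) in TA mice, 5.95, 6.82 and 7.24 in FC mice and 5.54, 6.50 and 7.21 in EXT mice. All but 1 of the 16 EXT mice were under the TA median, yet the groups overlapped. Its log2 fold change was -0.59 ± 0.14, a fold of 0.662 (limma, adjusted p = 0.013). It was -0.45, -0.67 and -0.15 inside batches 1, 2 and 5, and -0.38 with batches as categories (unadjusted p = 0.012, limma).

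The other acetyltransferases did not pass FDR 0.05 in either direction. Kat8, which acetylates histone H4 in the MSL and NSL complexes, had a log2 fold change of -0.27 ± 0.11 (limma, adjusted p = 0.060). Kat2b, a coactivator acetyltransferase, had the widest spread, from 2.16 to 4.57 log2 cpm in TA mice and 2.92 to 5.30 in EXT mice, and its log2 fold change of 0.41 ± 0.24 was not separable from that spread (limma, adjusted p = 0.211).

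Among the deacetylases, Hdac2 fell and the other 7 did not pass. Hdac2, the class I enzyme of the Sin3, NuRD and CoREST complexes, had log2 cpm of 7.36, 7.66 and 8.31 in TA mice, 7.05, 7.68 and 7.88 in FC mice and 6.67, 7.38 and 7.92 in EXT mice. The FC median was at the TA median, and 8 EXT mice lay below the lowest TA mouse, 5 of them in batches 3 and 4. The log2 fold change was -0.40 ± 0.11, a fold of 0.758 (limma, adjusted p = 0.017). The difference was -0.41 in batch 1 and -0.46 in batch 2 but -0.0038 in batch 5, and it was -0.24 with batches as categories (unadjusted p = 0.044, limma).

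The other class I deacetylases did not pass. The log2 fold change was -0.026 ± 0.11 for Hdac1, the near twin of Hdac2 in the same complexes, -0.12 ± 0.085 for Hdac3 of the NCoR complex and -0.21 ± 0.15 for Hdac8 (limma, adjusted p = 0.888, 0.280 and 0.293). The class IIa enzymes Hdac4 and Hdac5, which leave the nucleus when neurons are active, had 0.23 ± 0.11 and 0.25 ± 0.16 (limma, adjusted p = 0.111 and 0.241). Hdac6, the cytoplasmic class IIb enzyme that deacetylates tubulin, had -0.068 ± 0.15, and the class IV enzyme Hdac11 had -0.19 ± 0.0846 (limma, adjusted p = 0.764 and 0.108). Hdac3 and Hdac5 changed sign with batches as categories, to 0.0067 and -0.066.

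Of the 13 SWI/SNF-related genes, 3 fell and 1 rose. Smarcb1, a core subunit of SWI/SNF complexes, had the most negative fold change of the 52 genes. Its log2 cpm was 6.10, 6.50 and 6.84 in TA mice, 5.87, 6.23 and 6.64 in FC mice and 4.29, 6.07 and 6.68 in EXT mice, for a log2 fold change of -0.76 ± 0.21 and a fold of 0.591 (limma, adjusted p = 0.017). The low values came from part of the EXT group: 8 of 16 EXT mice lay below the lowest TA mouse, 5 of them in batches 3 and 4, where the mean was 4.99 against 6.17 in the other EXT mice. Inside batches 1, 2 and 5 the difference was -0.25, -0.87 and -0.0019.

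The ATPases showed smaller differences. Smarca4 (BRG1), the motor of neuronal SWI/SNF, had log2 cpm of 6.09, 6.32 and 6.67 in TA mice, 5.61, 6.31 and 7.22 in FC mice and 5.21, 6.06 and 6.72 in EXT mice, and its log2 fold change was -0.28 ± 0.10 (limma, adjusted p = 0.046). The differences inside batches 1, 2 and 5 were -0.38, -0.14 and -0.15, but without 1 EXT mouse that of batch 2 was 0.088. For Smarca4, males had -0.40 ± 0.13 and females -0.089 ± 0.17 (limma, unadjusted p = 0.0052 and 0.614), though the sexes were not separable (limma, unadjusted p = 0.144). Smarca5, the ISWI motor that spaces nucleosomes, had 6.22, 6.71 and 7.38 in TA mice, 6.49, 6.83 and 7.14 in FC mice and 6.03, 6.48 and 6.84 in EXT mice, with a log2 fold change of -0.27 ± 0.095 (limma, adjusted p = 0.044). Its difference was -0.54 and -0.27 in batches 1 and 2 and 0.010 in batch 5. Smarca2 (BRM), the alternative SWI/SNF motor, had -0.086 ± 0.078 (limma, adjusted p = 0.432).

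Smarcd3, a variable subunit through which transcription factors contact SWI/SNF, was the member of the family that rose. It had log2 cpm of 7.20, 7.43 and 7.77 in TA mice, 6.84, 7.50 and 7.71 in FC mice and 7.09, 7.80 and 8.20 in EXT mice, with 9 EXT mice above the highest TA mouse, 5 of them in batches 3 and 4. Its log2 fold change was 0.27 ± 0.096, a fold of 1.21 (limma, adjusted p = 0.041). The differences inside batches 1, 2 and 5 were 0.15, 0.13 and 0.22, of which the first and second turned negative without 1 EXT mouse (-0.21 and -0.13), and with batches as categories the difference of 0.17 did not reach an unadjusted p of 0.05 (p = 0.102, limma).

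Smarcal1, which rewinds DNA at stalled replication forks, was lower at an unadjusted p under 0.05 under both codings. Its log2 cpm was 4.39, 4.79 and 5.08 in TA mice, 3.89, 4.60 and 5.17 in FC mice and 3.83, 4.51 and 5.50 in EXT mice. The log2 fold change was -0.24 ± 0.11 with batch as a number and -0.29 with categories (limma, unadjusted p = 0.036 and 0.022), and it was negative in each of batches 1, 2 and 5. Males had -0.35 ± 0.12 and females -0.023 ± 0.20 (limma, unadjusted p = 0.0060 and 0.910), though the sexes were not separable (limma, unadjusted p = 0.127). Adding library size as a covariate left -0.014 (limma, unadjusted p = 0.917).

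Apart from Wdr82, only Kmt5a passed FDR 0.05 among the methyltransferase genes. Kmt5a, the enzyme that places single methyl groups on histone H4, had log2 cpm of 5.25, 5.88 and 6.59 in TA mice, 5.49, 6.13 and 6.63 in FC mice and 5.66, 6.19 and 7.67 in EXT mice, for a log2 fold change of 0.62 ± 0.18 and a fold of 1.54 (limma, adjusted p = 0.020). Most EXT mice overlapped the TA range, and 6 lay above it, 5 of them in batches 3 and 4, whose mean was 7.19 against 6.09 in the other EXT mice. Inside batches 1, 2 and 5 the difference was -0.10, 0.39 and 0.25.

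Kmt2e, a SET-domain protein that binds methylated histone H3, was the only gene with a positive difference at an unadjusted p under 0.05 under both codings of batch. It had log2 cpm of 6.87, 7.14 and 7.37 in TA mice, 7.03, 7.28 and 8.04 in FC mice and 6.83, 7.32 and 8.25 in EXT mice. Both trained groups overlapped TA and extended above it, with 5 FC and 4 EXT mice over the highest TA mouse. Its log2 fold change was 0.19 ± 0.084 with batch as a number and 0.25 with categories (limma, unadjusted p = 0.027 and 0.010), and it was positive in batches 1, 2 and 5 (0.66, 0.021 and 0.21). Kmt2c had 0.40 ± 0.16 with batch as a number but 0.038 with categories (limma, unadjusted p = 0.021 and 0.785).

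**Figure D3:**
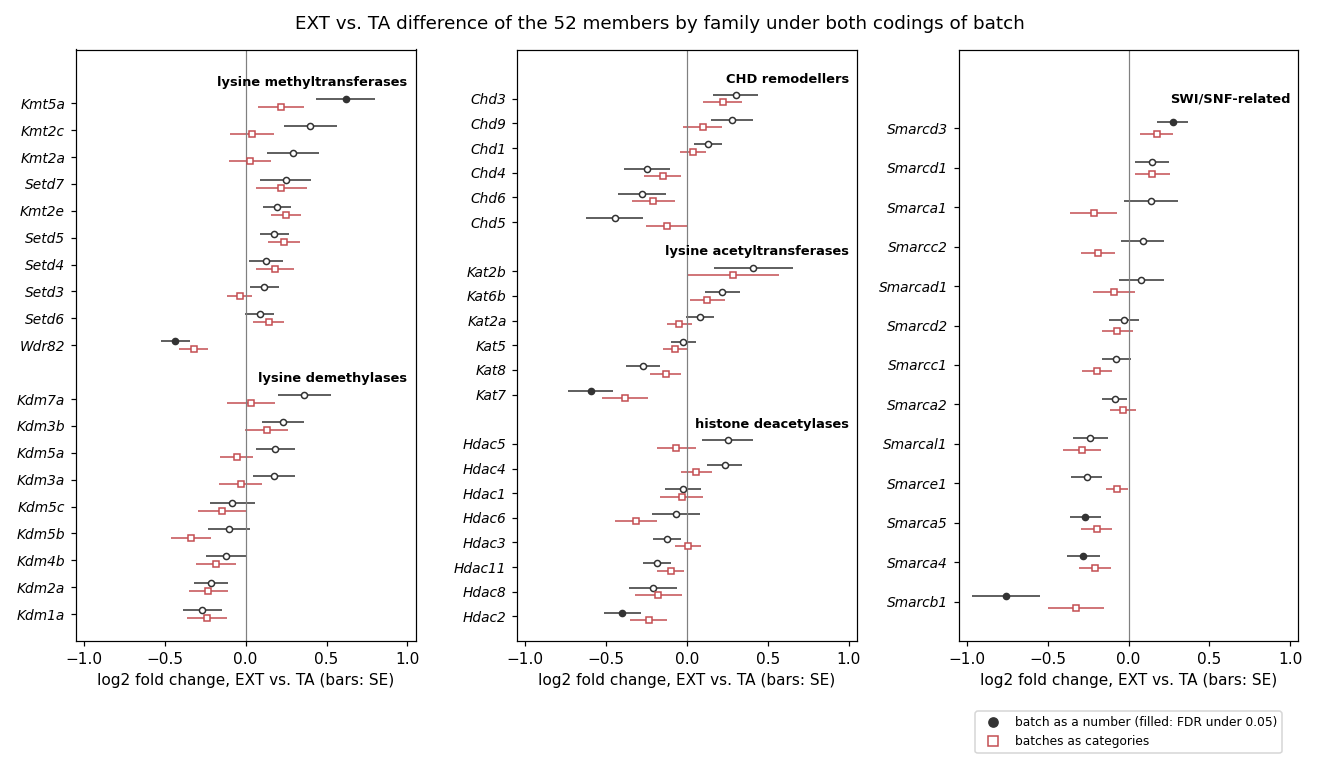
Log2 fold change between EXT and TA of each of the 52 genes by family, with bars for SE, when batch was a number (circles, filled at FDR under 0.05) and when batches were categories (squares). The 8 filled circles keep their side of 0 in the squares but lie nearer to 0 there, as for Smarcb1 (-0.76 and -0.32) and Kmt5a (0.62 and 0.22).

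No demethylase or CHD remodeller passed FDR 0.05. Kdm1a had -0.27 ± 0.12, Kdm2a, a demethylase that binds unmethylated CpG islands, had -0.22 ± 0.10, and Kdm7a had 0.36 ± 0.16 (limma, unadjusted p = 0.034, 0.046 and 0.034). Chd5, a remodeller found mainly in neurons, had the most negative fold change of the CHD genes, at -0.45 ± 0.17 (limma, adjusted p = 0.060), with log2 cpm of 4.58, 5.22 and 6.10 in TA mice and 3.63, 4.83 and 6.12 in EXT mice. Of the 6 EXT mice below all TA mice for Chd5, 5 were of batches 3 and 4. Chd3 and Chd9 had 0.30 ± 0.14 and 0.28 ± 0.13 (limma, unadjusted p = 0.038 and 0.044), and batch accounted for 77.0% of the variance of Chd3, the most of the 52 genes. Its antisense transcript Chd3os was higher after extinction, at 0.52 ± 0.15 (limma, adjusted p = 0.017), and reads of the pair may not be told apart, since no strand setting is given in the sources used here.

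Inside the 3 batches that held both groups, the sign of the EXT minus TA difference was counted as a description. It was negative in all of batches 1, 2 and 5 for 16 of the 52 genes (30.8%, against 19.3% of all genes), among them Wdr82, Kat7, Hdac2, Smarca4, Smarcb1, Smarcal1 and Kdm5b. It was positive in all 3 for 7 genes (13.5%, against 19.2%), namely Chd3, Smarcd3, Hdac4, Kat6b, Kmt2e, Setd5 and Setd6. Each mouse was left out in turn for the 8 FDR-significant genes, Smarcal1 and Kmt2e only, an alternative chosen after seeing the data. Among these genes, the differences of Wdr82, Kat7 and Smarcal1 stayed negative in all 3 batches. The remaining genes listed by sign were not tried in this way. A sign turned in batch 2 for Smarca4 (0.088), Kmt5a (-0.025), Smarcd3 (-0.13) and Kmt2e (-0.030), in batch 1 for Smarcb1 (0.026) and Smarcd3 (-0.21), and in batch 5 for Hdac2 (0.021), Smarcb1 (0.0615) and Smarca5 (-0.047). Batch 5, with the most mice, gave the smallest differences for Wdr82, Kat7, Hdac2, Smarcb1 and Smarca5.

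**Figure D4:**
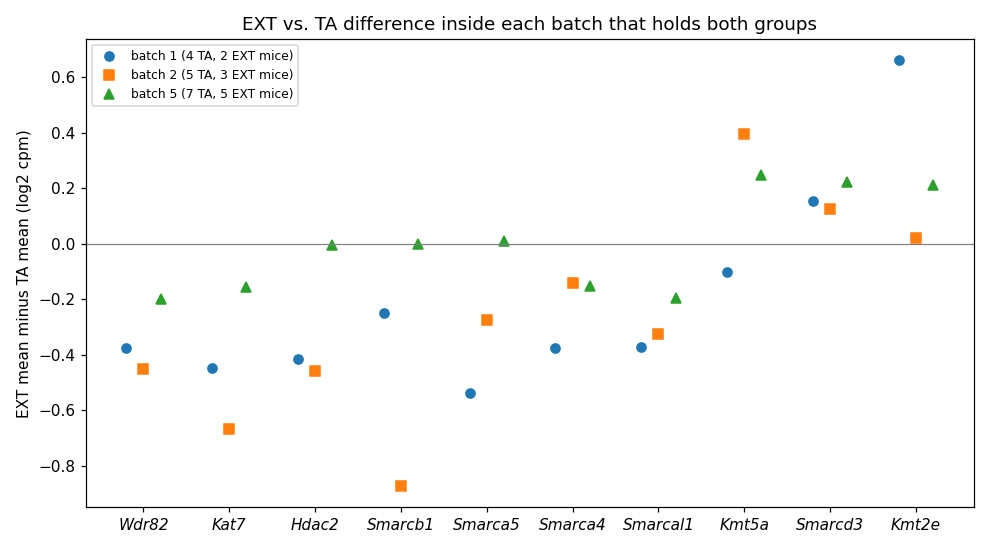
EXT mean minus TA mean, in log2 cpm, inside batches 1, 2 and 5 for the 8 FDR-significant genes and for Smarcal1 and Kmt2e, with no error drawn because batch 1 held 2 EXT mice. The differences of Wdr82, Kat7, Smarca4 and Smarcal1 are below 0 in each batch, that of Smarca4 in batch 2 by way of 1 EXT mouse, while Hdac2 (-0.0038), Smarcb1 (-0.0019) and Smarca5 (0.010) lie at 0 in batch 5.

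The 8 genes were also compared from mouse to mouse. After the mean of each batch and group was taken out, in the 39 mice of the cells with at least 3 mice, all 15 pairs of the 6 lower genes were positively correlated (Pearson r from 0.096 to 0.759), the pair of higher genes had r = 0.61, and all 12 mixed pairs were negatively correlated (-0.76 to -0.105). The strongest pair of all was Smarcb1 with Kdm1a (r = 0.834), followed by Hdac2 with Kdm1a (0.79), and Hdac2 with Kmt5a was the most negative (-0.76). Wdr82 went most closely with Kat7 (0.661). These are descriptions over libraries that share depth and composition, and over all 1326 pairs of the 52 genes the median r was 0.0473, against -0.00537 for all genes (lower and upper quartiles -0.206 and 0.202). The pairs of Wdr82 with Smarca5 (0.096) and of Smarcd3 with Kat7 (-0.105) and Wdr82 (-0.111) lay between these quartiles. The correlations were not repeated with single mice left out, although single mice turned the sign of some differences inside batches, as given above. How far the signs and sizes of r rest on a few mice was therefore not tested.

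Transcript length was examined because the 52 genes are long, with a median of 5102.5 bases against 3387 for all genes. In the EXT mice of batches 3 and 4, log2 cpm rose with the log10 of length relative to the other mice (slopes 0.054 to 0.828, median 0.277). The other EXT mice had slopes of -0.69 to 0.432 with a median of -0.28, and TA mice -0.432 to 0.848 with a median of -0.17, so that the 3 sets overlapped. Among the 2005 longest genes, which included 28 of the 52, the median log2 fold change was 0.15 for these 28 and 0.073 for all 2005 with batch as a number, and both turned negative with categories (-0.045 and -0.025). With the length trend removed from every mouse, all 8 genes still passed FDR 0.05 and 4 more did so, which makes 23.1% of the 52 beside 21.8% of all genes with a length. The 4 were all lower: Chd5 (-0.58), Chd6 (-0.42), Kat8 (-0.30) and Kdm2a (-0.33).

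Fear conditioning alone gave 0 FDR-significant genes among the 52 in limma, and 4 at an unadjusted p under 0.05, where 10.4% of all genes were. Of these, 3 were lower, against 6.18% of all genes, and 1 was higher, against 4.22%. Smarcc1, a scaffold subunit of SWI/SNF, had the smallest p, with log2 cpm of 5.68, 6.10 and 6.39 in TA mice and 5.31, 5.87 and 6.29 in FC mice and a log2 fold change of -0.26 ± 0.077 (limma, adjusted p = 0.309). Kmt2e had 0.24 ± 0.082, Kat7 -0.29 ± 0.12 and Wdr82 -0.24 ± 0.098 (limma, adjusted p = 0.356, 0.414 and 0.414). With batches as categories, the same 4 genes and Hdac6 had an unadjusted p under 0.05, where 16.8% of all genes did.

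EXT and FC mice, which differ by extinction, a day and the context of the last session, were also compared. None of the 52 genes passed FDR 0.05 in limma, and 9 had an unadjusted p under 0.05, where 19.3% of all genes did. Smarca5 had -0.30 ± 0.10, Chd5 -0.53 ± 0.21 and Hdac2 -0.33 ± 0.14 (limma, adjusted p = 0.219, 0.219 and 0.227), while Wdr82 had -0.20 ± 0.12 (limma, adjusted p = 0.355). With batches as categories, only Setd5, a SET-domain protein known for its link to intellectual disability, had an unadjusted p under 0.05 (0.28, p = 0.033, limma), where 4.19% of all genes did. TA and EXT mice each enter more than 1 of these comparisons, so the comparisons are not independent.

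In males alone, 12 of the 52 genes had an unadjusted p under 0.05 between EXT and TA, where 29.0% of all genes did, and none passed FDR 0.05 in limma. Wdr82 had -0.42 ± 0.11 and Kat7 -0.57 ± 0.16 (limma, adjusted p = 0.056 and 0.057). In females, with 6 mice in each group, 8 genes had an unadjusted p under 0.05, where 14.9% of all genes did, and again none passed. Wdr82 had -0.48 ± 0.17 and Kdm3b, a demethylase of histone H3, 0.48 ± 0.17 (limma, adjusted p = 0.330 for each). The test of the difference between the sexes found 0 of the 52 with an unadjusted p under 0.05 in limma, where 4.13% of all genes were.

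Between females and males over all groups, 4 of the 52 genes had an unadjusted p under 0.05, where 12.3% of all genes did, and none passed FDR 0.05 in limma. Kat5 (TIP60), an acetyltransferase of the DNA damage response, had 0.20 ± 0.075, Setd4 -0.24 ± 0.10 and Kdm4b 0.29 ± 0.12 (limma, adjusted p = 0.332, 0.347 and 0.347). Kdm5c, an X-linked demethylase known to escape X inactivation, had log2 cpm of 3.11, 3.86 and 4.84 in 18 females and 3.00, 3.73 and 4.37 in 26 males. Only 4 females lay above all males, and the difference of 0.25 ± 0.13 did not pass (limma, unadjusted p = 0.056), so the labels of sex could not be checked from this gene.

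Proteins that work in complexes with these enzymes were examined from 7 lists, of which 115 of 151 genes were tested. Of the 115, 35 passed FDR 0.05 between EXT and TA (30.4%, beside the 21.4% of all genes), 17 lower and 18 higher, and 20 had an unadjusted p under 0.05 with batches as categories (17.4%, beside 21.1% of all genes). Over all genes 11% were lower and 10.4% higher, and the counts of each list stand beside these shares. Among 25 subunits of deacetylase complexes, 2 were lower and 7 higher. Sin3b, a scaffold on which Hdac2 acts, had -0.54 ± 0.15, and Mier1, which recruits Hdac1 and Hdac2, had 0.67 ± 0.15 (limma, adjusted p = 0.019 and 0.013). With categories these were -0.27 and 0.34 (limma, unadjusted p = 0.065 and 0.0049).

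Of 12 COMPASS and MLL subunits 1 passed, where 21.4% of all genes did. It was Psip1, which tethers MLL complexes to chromatin (-0.75 ± 0.22, limma, adjusted p = 0.020), while Paxip1 had 0.36 ± 0.13 (limma, adjusted p = 0.0501). Of 17 SWI/SNF partners 2 were lower and 3 higher, with Brd9 at -0.56 ± 0.16 and Bcl7c at 0.82 ± 0.20 (limma, adjusted p = 0.019 and 0.013). Of 12 ISWI, INO80 and related partners 3 were lower and 1 higher, with Baz1b, a partner of Smarca5, at -0.47 ± 0.14 and Rsf1, also a partner of Smarca5, at 0.59 ± 0.18 (limma, adjusted p = 0.018 and 0.025). With categories all 6 kept their sign at smaller sizes. Bcl7c had 0.43 and Baz1b -0.26 (limma, unadjusted p = 0.017 and 0.045), and the values of Psip1 (-0.23), Paxip1 (0.094), Brd9 (-0.21) and Rsf1 (0.15) had an unadjusted p above 0.05.

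Among 19 acetyltransferases and their partners 3 were lower and 4 higher, with Dmap1 at -0.65 ± 0.18 and Msl1, a partner of Kat8, at 0.48 ± 0.14 (limma, adjusted p = 0.017 and 0.020). Among 23 other methyltransferases and polycomb genes 4 were lower and 0 higher, where 11% of all genes were lower and 10.4% higher. With categories 1 of these 23 had an unadjusted p under 0.05 in limma, where 21.1% of all genes did. Bmi1, which did not pass, had 0.39 ± 0.15 with batch as a number (limma, adjusted p = 0.061). Of the 7 genes that write, read or erase DNA methylation 2 were lower and 3 higher. Dnmt1, the maintenance methyltransferase, had -0.75 ± 0.17 with batch as a number (limma, adjusted p = 0.013) and -0.73 with batches as categories. With categories Dmap1 had -0.23, Msl1 0.26 and Bmi1 0.087 (limma, unadjusted p = 0.104, 0.058 and 0.497).

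Transcripts of GABAergic neurons of the central amygdala, Crh among them, moved in the same comparison when batch was a number. Not all of them mark the tagged cells, since the paper describes Crh, Sst and Prkcd as marks of separate populations. Of 10 markers of GABAergic neurons of the central amygdala, 5 were lower after extinction (Gad1, Gad2, Crh, Sst and Pdyn) and 0 higher at FDR under 0.05. Of all genes, 11% were lower and 10.4% higher. The summed level of the 10 markers ranged from 3010 to 7350 cpm in TA mice and from 1440 to 7760 cpm in EXT mice. Gad1 had -0.61 ± 0.14 and Crh -0.93 ± 0.29 (limma, adjusted p = 0.013 and 0.023). With batches as categories 2 of the 10 had an unadjusted p under 0.05 in limma, where 21.1% of all genes did. These were Gad1 (-0.42) and Gad2 (-0.24), while Crh (-0.32), Pdyn (-0.21), Sst (-0.13) and the astrocyte marker Slc1a2 (0.30) were not among such genes. Of 8 astrocyte markers 1 was higher, Slc1a2, at 0.96 ± 0.29 (limma, adjusted p = 0.023). None of the 4 choroid plexus, 7 oligodendrocyte, 2 glutamatergic neuron and 1 microglia markers passed in limma. Of these, 1, 2, 0 and 1 had an unadjusted p under 0.05, where 37.8% of all genes did. The part of these shifts in the values of the chromatin genes was not tested.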

How the data were processed

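Ribosome-associated RNA of 44 mice was analysed. The authors trimmed reads with Trimmomatic 0.36, mapped them with STAR, counted them per gene, filtered genes on a minimum of 4 cpm in all samples with edgeR, and deposited log2 values in the form that voom gives (cpm from reads plus 0.5). For 12 columns the record of units lists other, since their names are animal numbers, although they hold the same deposited log2 values. Groups, sex and batch came from the labels. Contrasts were fitted on all 8203 rows with lmFit and eBayes of limma 3.58.1 (R 4.3.3), with sex and batch number as a numeric covariate, two-sided, and Benjamini-Hochberg adjustment. Without another statement, p-values and fold changes are from this fit. Length and GC trends were natural splines with 4 degrees of freedom. Gene lengths came from GENCODE release M21. The members, lists, motifs and rule for named genes were chosen with earlier results of these data known: Wdr82, the genes of smallest p by family, comparison and partner list, those at an unadjusted p under 0.05 under both codings, those at the ends of each family's levels, Kdm5c, and every Hdac. Smarca2, Smarce1, Kat2b, Setd5, Chd6, Chd3os and the genes listed by sign inside batches were named outside this rule, after their values were seen. Markers were named where their list was described. The fits were tested on simulated data. Alternatives are given in the closing section. The authors' module, pathway and behavioural data were not analysed here. The values of 2 genes that the rule names are not reported here.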

Additional observations from a re-analysis of the deposited data

Results flagged for a closer look

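In FC males, 1 of 6 mice had a Smarcd3 level far from the others. This mouse, number 47 of batch 5, had 6.844 log2 cpm, and the other 5 lay between 7.467 and 7.701, so the gap to the nearest took up 0.726 of the whole range. It was found among 48 sets of mice (8 genes in 6 sets by group and sex), and chance alone gives about 1 such set in 20. The mouse does not enter the comparison of EXT with TA.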

How the results depend on the processing

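Between EXT and TA, the 8 FDR-significant genes became 0 with batches as categories, 0 without batches 3 and 4 and 0 with library size as a covariate. The 21 genes at an unadjusted p under 0.05 became 10, 11 and 4 (all genes 21.1%, 18.8% and 5.47%), those of males (12) became 6, 6 and 1 (12.5%, 10.4% and 5.56%), and those of females (8) became 3, 5 and 4 (13.8%, 14.7% and 5.83%). The 9 genes between EXT and FC became 1, 2 and 1 (4.19%, 4.41% and 4.83%). For the sex difference, 0 became 1 with categories and 5 without batches 3 and 4 (6.02% and 9.05%). Between EXT and TA, 9 of the 52 genes (1916 of all genes) had opposite signs under the 2 codings of batch. The 8 FDR-significant genes kept their direction under every alternative fit. Smarca4 lost its FDR call with the GC trend removed and with all 3 groups fitted together, and Smarcd3 with quantile-normalized samples, while the other 7 stayed. All 8 stayed with voom weights, no batch term and a minimum mean log2 value of 5. Smarce1 was added in each of these 6 fits other than that with no batch term.

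Some named genes that were not called changed sign between EXT and TA. With categories these were Hdac3 (0.0067), Hdac5 (-0.066), Setd3 (-0.036) and Smarcad1 (-0.090), and without batches 3 and 4 the same genes (0.0036, -0.083, -0.046 and -0.070). With library size they were Hdac1 (0.084), Hdac3 (0.015) and Kdm5c (0.125). Between FC and TA they were Chd3 (-0.015) and Kdm1a (-0.022) with categories and Hdac3 (0.035) and Smarca5 (0.037) with the length trend removed. Why these values moved was not tested. Library size differed by group within batches, so a covariate for it also takes up group differences. No paired analysis was possible because replicate numbers only follow the order of samples.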
